A study of Mus musculus with 2 samples.

Results

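Lipid handling genes of macrophages were followed through GR-1+ cells of mouse mammary tumors under anti-PD1 treatment. The 10 members, Apoe, Abca1, Abcg1, Trem2, Gpnmb, Lpl, Fabp4, Fabp5, Cd36 and Plin2, were chosen by name, and all 10 were found by symbol among the 28692 genes listed in both count matrices. Their levels were read in barcodes with 250 to 5000 detected genes, at most 27000 unique molecular identifiers (UMIs) and at most 12.5% of UMIs from mitochondrial genes. These limits kept 3220 of 4390 barcodes. The cells came from 4T1, a triple negative mammary carcinoma line of the BALB/c mouse, grown in the mammary fat pad of female BALB/c mice aged 8 to 10 weeks. The library labelled 4T1p held, by its label, cells from tumors of the parental line, which resists anti-PD1, and the library labelled 4T1m held cells from tumors of polyclonal cells that had been exposed to the mutagen 1-methyl-3-nitro-1-nitrosoguanidine and that respond to it. Both groups of mice received anti-PD1 for up to 2 weeks, so no untreated cells were compared. GR-1+ cells were taken from the tumors by magnetic selection and sequenced with a 10x Chromium 3′ kit, with 1 library per tumor type. How many mice each library pooled was not given in the sources used here.

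With 1 library per condition there was no test. Each level is a CPM, in which the UMIs of a gene were summed over a group of cells and set to a total of 1000000, and every interval is an exact 95% interval that covers counting error only, not the difference between mice. The libraries held 1641 (4T1p) and 2749 (4T1m) barcodes with 9021132 and 14840190 UMIs, of which 1128 and 2092 barcodes were kept, and they shared 0 barcodes. Median UMIs over all barcodes were 2066 in the 4T1p and 2763 in the 4T1m library. Each of these medians is the value that the methods of the study give for the other tumor, so the labels of the files and that text are crossed. Genes chosen after their values were seen are crossed with it too. In monocytic-like cells, described next, all 10 genes read from complement, MHC class II and the group of Tmem176b, Irf7 and Klf2 were lower in the library labelled 4T1m, such as C1qa (4717 CPM in 4T1p, 2484 CPM in 4T1m) and H2-Ab1 (4230 and 2070 CPM), and all 7 inflammatory genes read were higher, such as Il1b (2319 and 4643 CPM) and Ptgs2 (380 and 1587 CPM). The text of the study sets these groups with the other tumor in each case. Its comparison was between regions of monocytic cells enriched in either tumor, after further filters, and not between all monocytic-like cells. An exchange of the labels was not tested and would turn the sign of every ratio of 4T1m over 4T1p, so 4T1p and 4T1m stand throughout for the libraries so labelled, not for the response of a tumor. Clusters were made without the members and without the other lipid genes, so that no member defined a group in which it was read. They gave 1842 monocytic-like cells (854 in 4T1p, 988 in 4T1m), 1274 granulocytic-like cells (251 and 1023), 36 B cell-like cells, 28 T cell-like cells and 40 barcodes that took no name. Levels of 3 of the markers by which clusters were named follow, and they describe the groups but cannot test the names. Csf1r, the receptor for the growth factor of macrophages, stood at 501 CPM against 38.8 in granulocytic-like cells, and the complement gene C1qa at 3356 against 92.8. S100a8, an abundant neutrophil protein, was at 399 CPM in monocytic-like and 68273.6 in granulocytic-like cells.

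Macrophages take up lipid with lipoproteins, dying cells and free fatty acids, break it down in lysosomes, and either store it as cholesterol and triglyceride esters in droplets or send cholesterol out of the cell. Scavenger receptors such as CD36 bring lipid in, lipoprotein lipase frees fatty acids from lipoproteins, and the fatty acid binding proteins FABP4 and FABP5 carry them through the cytosol. Perilipin 2 coats the droplets. The transporters ABCA1 and ABCG1 pass cholesterol to acceptors, among them apolipoprotein E, and are classic targets of the liver X receptors (LXR), which sense oxidised sterols. TREM2 is a surface receptor that binds lipids and apolipoproteins, and macrophages with TREM2, GPNMB, APOE and FABP5 have been described in fat tissue, atherosclerotic plaques and tumors.

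The genes lie apart in the GRCm38 annotation. Apoe spans chromosome 7, 19696109 to 19699188, on the minus strand, Trem2 chromosome 17, 48346401 to 48354147, on the plus strand, and Abcg1 lies on the same chromosome at 31057675 to 31117988 (plus). Abca1 and Plin2 are both on the minus strand of chromosome 4, at 53030787 to 53159895 and at 86648386 to 86670060. Fabp5 (10012548 to 10016607, plus) and Fabp4 (10204088 to 10208576, minus) are neighbours in a cluster of binding protein genes on chromosome 3. Gpnmb lies on chromosome 6 at 49036546 to 49070929 (plus), Cd36 on chromosome 5 at 17781690 to 17888801 (minus) and Lpl on chromosome 8 at 68880491 to 68907448 (plus). Fabp5 has processed copies elsewhere in the mouse genome that can take or lose its reads, so its counts are uncertain to that extent.

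Apoe and Trem2 were the members that set monocytic-like from granulocytic-like cells furthest apart among those with at least 200 UMIs in the 2 groups. Apoe, the apolipoprotein that carries cholesterol away from macrophages, stood at 10742 CPM in monocytic-like and 355 CPM in granulocytic-like cells, 30.2-fold higher (log2 ratio 4.92, 4.84 to 5.0). Trem2 stood at 291 against 11.8 CPM (log2 ratio 4.63, 4.22 to 5.08). Both gaps were present in each library on its own, at 5.36 (4T1p) and 4.54 (4T1m) for Apoe and 4.91 and 4.40 for Trem2. Nearly all UMIs of these members were in monocytic-like cells, 98.8% of 129423 for Apoe and 98.6% of 3516 for Trem2.

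Fabp5, the epidermal-type fatty acid binding protein, and Cd36, the fatty acid and oxidised lipoprotein receptor, were also over 2-fold higher in monocytic-like cells. Fabp5 read 441 against 163 CPM (1.44, 1.32 to 1.56). Cd36 read 17.9 against 1.5 CPM (3.58, 2.43 to 5.04), on 213 against 6 UMIs. With lineages taken from the markers of each cell and not from clusters this ratio was −0.15, with some of the barcodes that took no name among the granulocytic-like cells. Abca1, the exporter of cholesterol to lipid-poor apolipoprotein A1, fell just short of 2-fold at 303 against 159 CPM (0.93, 0.81 to 1.06). It passed 2-fold in each library taken alone, at 1.34 in 4T1p and 1.13 in 4T1m. The 4T1m library, in which Abca1 was higher in both lineages, gave 1023 of the 1274 granulocytic-like cells. Abcg1, which hands cholesterol to high density lipoprotein, was level between the lineages at 61.6 and 58.5 CPM (0.07, −0.14 to 0.29).

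Plin2, the coat protein of lipid droplets, went the other way. It read 441 CPM in monocytic-like and 816 CPM in granulocytic-like cells (−0.89, −0.95 to −0.82), and the gap was alike in 4T1p (−0.81) and 4T1m (−0.87). Gpnmb, a lysosomal glycoprotein of macrophages, read 12.0 and 14.5 CPM, a ratio whose interval spans 0 (−0.27, −0.72 to 0.19), but the libraries differed, at −2.20 (−2.98 to −1.41) in 4T1p on 33 against 27 UMIs and 0.63 (0.05 to 1.26) in 4T1m on 110 against 31. Lpl had 70 UMIs in monocytic-like and 1 in granulocytic-like cells, and Fabp4 57 and 14, both under the minimum of 200 UMIs set for a comparison.

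In all, 4 of the 8 members past that minimum (Apoe, Trem2, Fabp5 and, in the lineages by cluster, Cd36) were at least 2-fold higher in monocytic-like cells, beside 49.6% of all 6274 genes past it. None of the 8 was at least 2-fold lower, beside 11% of all genes. The median log2 ratio was 1.19 over the 8 members and 0.98 over all genes, so the members as a list stood close to the background of this comparison, and the values of single members carry the description. Values by depth differed. Among cells of at least 5000 UMIs, 7 of the 8 were at least 2-fold higher in monocytic-like cells (all but Plin2), and among cells under 5000 UMIs the Abca1 ratio was −0.55. The share of all genes past 2-fold was not read within the depth split, so 7 of 8 cannot be set against the 49.6%. States and depth moved together here, and their parts cannot be told apart by this split.

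Free RNA can put UMIs of an abundant gene into droplets of other cells, so levels outside macrophages were read beside those of lymphocytes. Free RNA itself was not measured. Apoe was at 445 CPM in B cell-like and 241 CPM in T cell-like cells, around its 355 CPM in granulocytic-like cells. A UMI of Apoe was seen in 94.8% of monocytic-like cells (median 2265.5 UMIs) and 41.1% of granulocytic-like cells (2534.5 UMIs). Among lymphocytes it was seen in 55.6% of B cell-like (3787.5 UMIs) and 32.1% of T cell-like cells (5424.5 UMIs). Nearly all these lymphocytes came from 4T1m, with 1 B cell-like and 7 T cell-like cells in 4T1p. Within 4T1p the T cell-like cells held 0.15% of the monocytic-like Apoe level and the B cell-like cell 3.37%, against 2.43% in granulocytic-like cells. How much of the granulocytic-like Apoe was free RNA was not tested. After thinning each cell to 1000 UMIs, which left out 510 monocytic-like and 105 granulocytic-like cells, the shares were 91.2% and 22.0%. Granulocytic-like cells held 2.43% (4T1p) and 4.30% (4T1m) of the monocytic-like Apoe level. RNA mixed in at those proportions would bring 8.80 and 10.6 CPM of Trem2. Measured were 12.1 (5.79 to 22.2) and 11.7 (8.22 to 16.1) CPM, with intervals that hold those values. Where the Trem2 and Apoe of granulocytic-like cells came from was not tested.

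Plin2, Abca1, Abcg1, Fabp5 and Gpnmb did not keep to that ratio, nor did Fabp4, on 2 (4T1p) and 12 (4T1m) UMIs. Fabp5 would reach 12.6 and 16.8 CPM, against 201 (171 to 233) and 153 (140 to 167) measured in granulocytic-like cells. It also stood at 110 CPM (67.1 to 170) in B cell-like and 50.5 CPM (23.1 to 95.9) in T cell-like cells. Gpnmb would reach 0.17 and 0.65 CPM, against 32.6 and 9.78 measured, on 27 and 31 UMIs. The same proportions would bring 9.95 and 19.8 CPM of Plin2 to granulocytic-like cells, where 717 (661 to 778) and 842 (810 to 874) were measured, and Plin2 had 0 UMIs in the 36 B cell-like cells, which allows up to 16.5 CPM by the limit of 3 counts, and 107 CPM (64.2 to 167) in the 28 T cell-like cells. For Abca1 they would bring 3.5 and 17.4 CPM, against 56.8 (41.7 to 75.5) and 185 (170 to 201) measured. Abcg1 would reach 1.53 and 2.61 CPM, against 51.9 and 60.2, but it also stood at 82.4 CPM (46.1 to 136) in B cell-like and 39.3 CPM (15.8 to 81.0) in T cell-like cells, so its granulocytic-like level is not above that of lymphocytes. Abca1 was also at 126 CPM (80.0 to 189) in B cell-like cells. A UMI of Abca1 was seen in 44.4% of those and 27.2% of granulocytic-like cells, at unlike median depths of 3787.5 and 2534.5 UMIs. Within 4T1m Abca1 read 129 CPM (81.9 to 194) in B cell-like and 185 CPM in granulocytic-like cells, with intervals that overlap. In T cell-like cells Abca1 stood at 22.5 CPM (6.12 to 57.5) on 4 UMIs, below its 159 CPM (146 to 171) in granulocytic-like cells. A UMI of Plin2 was seen in 69.9% of granulocytic-like and 54.5% of monocytic-like cells, and in 47.8% and 29.4% after thinning.

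Monocytic-like cells fell into 8 clusters, called states M0 to M7 here and known by their leading genes. M0 (319 cells) was led by Thbs1, Sdc1, Il7r and Inhba, M5 (195 cells) by genes that include Ccl5, Mir155hg and Tnip3, M6 (145 cells) by Cp, C6, Olfml3 and Cxcl9, and M7 (81 cells) by Cd163, Lyve1 and Cbr2. M4 (206 cells) carried cell cycle genes such as Birc5 and Top2a. M1 (319 cells; Fabp5, Mmp12, Lgals3), M2 (289 cells; AW112010, Tmem176b, Aif1) and M3 (288 cells; Ccl12, Gatm) had the lowest RNA content, with medians of 978, 1171 and 991.5 UMIs against 6892 to 16082 in M0, M5, M6 and M7. Granulocytic-like clusters are G1 (526 cells; Mirt1, Il1f9), G4 (307 cells; Slc2a3, Steap4, Cxcr2), G6 (265 cells; Ccdc126, Tnfrsf23) and G8 (176 cells; Camp, Ngp, Ltf). The libraries held the states in unlike shares. M6 held 40.5% of monocytic-like UMIs in 4T1p and 4.09% in 4T1m, M2 9.16% and 2.40%, M0 17.8% and 37.3%, and M5 9.05% and 33.7%.

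Apoe was highest in the states of Aif1 and Cxcl9 and lowest in that of Thbs1. Its level was 21469 CPM in M2, 20471 in M6, 10821 in M3, 9534 in M5, 8959 in M1, 7698 in M7, 6470 in M4 and 5578 in M0, and over both libraries together each step of that order exceeded its counting interval. Within a library 2 of the steps turned, with M6 (18851) above M2 (18342) in 4T1m and M7 (8188) just above M1 (8128) in 4T1p. The lower ranks also hung on few cells, with 1033 of the 1657 M7 UMIs of 4T1p in 5 of 22 cells. Without the 5 cells with most Apoe in each state, M4 (7865 CPM) stood above M1 (7365) in 4T1p, and M7 (5389) was level with M0 (5373). In 4T1m M4 (4419) was then level with M0 (4413). M2 and M6 stayed highest in each library. Even M0 stood 3.15 (3.0 to 3.30) on the log2 scale above the granulocytic-like cluster with most Apoe, G4 at 629 CPM. Trem2 varied far less between states, from 394 CPM in M6 to 198 in M4. Its neighbours from M6 through M2, M3, M1, M7 and M0 down to M5 (247 CPM) did not differ beyond their intervals except at M5 over M4 (0.32, 0.05 to 0.59), and M4 stood 2.77 (2.05 to 3.56) above the next group.

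Abca1 and Abcg1 were ordered otherwise. Abca1 was highest in M7 (460 CPM) and M0 (455), which did not differ beyond counting error over both libraries together and led in each. Below them the order differed between the libraries. In 4T1p, M3 (148 CPM), M6 (130) and M5 (124) followed, with overlapping intervals, and in 4T1m M5 (415), M6 (314) and the granulocytic-like cluster G1 (282). M2, the state with most Apoe over both libraries, was low in Abca1 in each, at 28.2 CPM in 4T1p and 126 CPM in 4T1m. Abcg1 was highest in G6 (135 CPM, 68 UMIs) over both libraries, a rank that came from 4T1m (159 CPM), whereas G6 of 4T1p read 63.5 CPM on 8 UMIs, below M0 (99.4). Among states M0 (90.1) and M6 (68.4) were highest and M4 (33.7) lowest over both libraries.

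**Figure D1:**
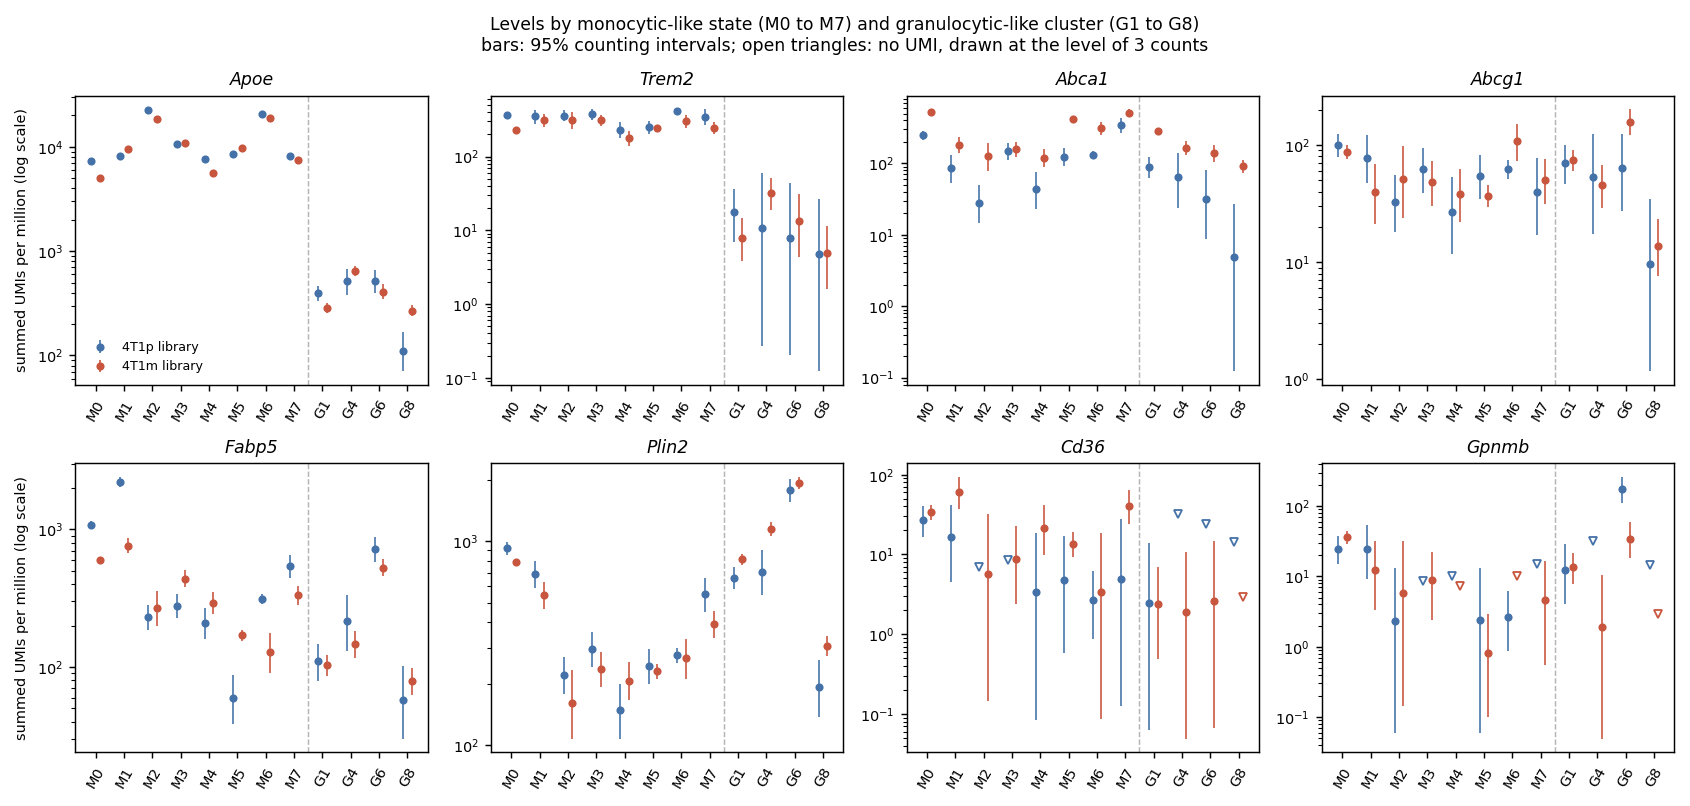
Level of 8 members in each monocytic-like state (M0 to M7) and granulocytic-like cluster (G1 to G8), in CPM on a log axis that differs between panels, for the 4T1p library (blue) and the 4T1m library (red). Bars are 95% counting intervals and open triangles mark groups with no UMI, drawn at the level of 3 counts; Apoe and Trem2 drop at the dashed line between the lineages, Plin2 is highest in G6, and Abca1 is higher in the 4T1m library in every group shown.

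Fabp5 and Plin2 were highest where Apoe was not. Fabp5 read 1387 CPM in M1, whose leading gene it is, 714 in M0, 397 in M7, 368 in M3, 286 in M6, 258 in M4, 242 in M2 and 154 in M5, against 573 in G6 and 1384 in the unnamed barcodes. Its UMIs were unevenly spread over cells. A few cells set its level in several states, with 98 of 109 UMIs of M7 in the 4T1p library in 5 cells and 23 of 25 UMIs of M5 in 5 of 30 cells. Plin2 read 819 CPM in M0, 605 in M1 and 441 in M7, and 183 to 274 in the other 5 states. The granulocytic-like clusters G6 (1889 CPM), G4 (1084) and G1 (779) were the other groups with high Plin2, while the Camp and Ngp cluster G8, whose genes mark immature neutrophils, read 286. G6 over G4 (0.80, 0.66 to 0.95) and G4 over M0 (0.40, 0.28 to 0.52) exceeded counting error over both libraries together, M0 over G1 did not. G6 led in each library, but in 4T1p G4 (707 CPM, 44 of its 66 UMIs in 5 cells) stood below M0 (924 CPM).

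Cd36 and Gpnmb were rare, and their levels rest on few cells. Cd36 had 114 of its 213 monocytic-like UMIs in M0 (32.3 CPM), 24 in M1 (42.2 CPM) and 19 in M7 (29.6 CPM). The M1 value hangs on 1 cell, which held 15 of the 24 UMIs. Gpnmb had 117 of 143 monocytic-like UMIs in M0 (33.2 CPM) and 35 of 58 granulocytic-like UMIs in G6 (69.4 CPM). In M5 Cd36 had 35 UMIs (12.2 CPM), and in G1 Gpnmb had 22 (13.3 CPM). The other named groups held at most 10 UMIs of either gene.

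Across 27 groups (cluster by library, each of at least 20 cells), log2(CPM + 10) of Apoe and Trem2 ran together, with a Pearson r of 0.97. It describes these groups and comes with no p, since the groups share libraries and their depth. The groups span both lineages, between which the log2 ratios were 4.92 for Apoe and 4.63 for Trem2, and that step enters the r. An r over monocytic-like states alone was not read. The next highest pair was Gpnmb with Plin2 at 0.62. Abca1 and Abcg1, both LXR targets, had 0.45, and Apoe with Plin2 −0.05. By the same measure the genes outside all lists most like Apoe were Ctss (0.99), Ms4a6d (0.97) and Cndp2 (0.96), and those most like Trem2 were Tbxas1 (0.98), Ms4a6d (0.97) and Ctsa (0.97). Plin2 was most like Hmox1 (0.92), Atp6v1a (0.86) and Card19 (0.85), and Gpnmb most like Atp6v0d2 (0.85), Gbe1 (0.80) and Cstb (0.79). Abca1 had no such close partner, with Qk (0.80), Rasgef1b (0.78) and Ppp2ca (0.77) first. For Abcg1 they were Tec (0.86), Fndc3a (0.73) and Nceh1 (0.73), for Fabp5 Eif1b (0.79), Atf5 (0.78) and Slc6a8 (0.76), and for Cd36 they included Capn2 (0.76) and Zfp664 (0.75).

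Within monocytic-like cells thinned to 1000 UMIs, a Trem2 UMI was present in 23.8% (21.4 to 26.3) of the 1215 cells with an Apoe UMI and in 7.69% (3.58 to 14.1) of the 117 cells without one. Plin2 showed the opposite order, at 28.4% (25.9 to 31.0) and 39.3% (30.4 to 48.8), with intervals that overlap slightly. Members were rarely all seen in the same cell. Monocytic-like cells of at least 5000 UMIs held a median of 5 and at most 8 of the 10 members, and 0 of 715 held all. Granulocytic-like cells of at least 5000 UMIs held a median of 2. Cells above that limit were not thinned here, so these medians are not matched for depth.

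Promoters are shown for the pair that ran together, Apoe and Trem2, and for Abca1, the member furthest apart between the libraries among those with over 1000 UMIs in monocytic-like cells. RefSeq sequences on GRCm38.p6, from 250 bases before to 50 bases after a start site, were matched for 6 of the 10 members (Apoe, Abca1, Trem2, Gpnmb, Cd36 and Plin2). Capitals mark exact matches on either strand to 3 motifs. They are GAGGAA, the core bound by the myeloid factor PU.1, AGGTCA, a half-site of nuclear receptor elements, and TATAAA, the TATA box. The windows are chr7:19699139-19699438 (minus strand) for Apoe, chr17:48346151-48346450 (plus strand) for Trem2 and chr4:53159846-53160145 (minus strand) for Abca1.
Apoe: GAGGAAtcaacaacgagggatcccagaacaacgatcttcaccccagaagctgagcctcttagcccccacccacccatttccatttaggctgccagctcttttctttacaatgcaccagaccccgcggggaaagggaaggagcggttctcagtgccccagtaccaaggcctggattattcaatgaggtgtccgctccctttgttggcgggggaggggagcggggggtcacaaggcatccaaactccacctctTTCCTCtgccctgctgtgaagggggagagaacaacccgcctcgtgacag
Trem2: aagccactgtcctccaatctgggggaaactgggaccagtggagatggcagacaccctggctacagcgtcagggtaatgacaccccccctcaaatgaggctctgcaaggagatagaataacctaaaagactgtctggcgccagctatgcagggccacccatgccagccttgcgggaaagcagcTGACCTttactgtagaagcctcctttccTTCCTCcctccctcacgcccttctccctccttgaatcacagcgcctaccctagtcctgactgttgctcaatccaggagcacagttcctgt
Abca1: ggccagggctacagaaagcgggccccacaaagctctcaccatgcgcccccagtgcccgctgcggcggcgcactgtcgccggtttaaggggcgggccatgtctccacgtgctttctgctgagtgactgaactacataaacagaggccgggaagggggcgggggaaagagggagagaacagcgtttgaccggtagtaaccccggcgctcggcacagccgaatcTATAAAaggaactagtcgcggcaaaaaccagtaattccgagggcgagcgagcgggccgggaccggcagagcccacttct

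Both Apoe and Trem2 held GAGGAA, which is in 28.3% of all 32851 promoters of the table, and no letters of the matches in these windows are shared between motifs. In Trem2 its reverse complement starts 40 bases before the start site, and that of AGGTCA 68 bases before. In Apoe a match opens the window and a reverse match starts 1 base after the start site. AGGTCA was in 3 of the 6 matched members (Trem2, Cd36 and Plin2) and in 16.3% of all promoters. Abca1 held TATAAA, 29 bases before its start, which 13.6% of promoters contain, and no exact match to the other motifs. Variants of a half-site were not sought, so a window without a match can still hold a nuclear receptor element. The Apoe, Abca1 and Trem2 windows had a GC content of 57.7%, 62.7% and 56% against a median of 52.7%. These matches describe letters in a window and not bound sites.

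The 2 libraries were then compared within monocytic-like cells. Of the 7 members with at least 200 UMIs in those cells, Abca1 and Cd36 were at least 2-fold higher in the 4T1m library, 2 of 7 beside 6.55% of all 5694 genes past the minimum, and none was at least 2-fold lower, beside 1.26%. The Cd36 call was lost with only cells that had a Ptprc UMI (0.84) and with log-normalization for clustering (0.99), where Abca1 alone was left. The median log2 ratio of 4T1m over 4T1p was −0.06 over the 7 members and 0.14 over all genes. Median UMIs per monocytic-like cell were 1638 in 4T1p and 4121.5 in 4T1m, and different states hold most of the cells, M2, M3 and M1 in 4T1p and M0, M1 and M5 in 4T1m. The 10 monocytic-like markers summed to 13225 CPM in these cells of 4T1p and 7977 CPM in those of 4T1m, and the 8 granulocytic-like markers to 897 and 1299 CPM. The part of these differences in the values was not tested beyond the splits by state and depth given here.

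Abca1 was the clearest of these differences. It read 144 CPM (133 to 155) in 4T1p and 404 CPM (390 to 419) in 4T1m, 2.81-fold higher (log2 ratio 1.49, 1.37 to 1.61). A UMI was found in 25.9% of cells in 4T1p and 49.2% in 4T1m, and in 9.70% and 25% after thinning to 1000 UMIs. The level was higher in 4T1m in 8 of 8 states, by 0.09 in M3, where the interval spans 0 (−0.45 to 0.63), up to 1.75 (1.34 to 2.18) in M5 and 2.17 (1.09 to 3.31) in M2. The M2 value rests on 12 UMIs in 4T1p and 22 in 4T1m, 15 of the 22 in 5 cells. In M5 of 4T1p, 5 of 30 cells held 32 of the 52 UMIs. Abca1 was higher in 4 of 4 granulocytic-like clusters too, though G4, G6 and G8 of 4T1p held only 6, 4 and 1 UMIs. Over all granulocytic-like cells it stood at 56.8 CPM in 4T1p and 185 in 4T1m (1.71, 1.28 to 2.17). The ratio was 1.4 in cells of at least 5000 UMIs and 1.65 in those under 5000. In the deeper cells the median cell read 107 CPM (quartiles 0 to 251) in 4T1p and 358 CPM (119 to 631) in 4T1m.

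Apoe was the reverse in the pooled cells. It read 14612 CPM in 4T1p and 8262 CPM in 4T1m (−0.82, −0.84 to −0.81). Within states the difference was smaller and of mixed direction, higher in 4T1m in 3 states and lower in 5, from −0.51 in M0 to 0.24 in M1 with a mean of −0.13 over the 8 states. Granulocytic-like cells held 355 CPM of Apoe in both libraries. The median cell of at least 5000 UMIs read 10460 CPM (quartiles 4486 to 18420) in 4T1p and 4963 CPM (2178 to 10848) in 4T1m, so that the middle ranges of the libraries overlapped.

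Trem2 read 362 CPM in 4T1p and 246 CPM in 4T1m (−0.56, −0.65 to −0.46). It was lower in 4T1m in 8 of 8 states, by values from −0.67 in M0 to −0.02 in M5, and the intervals of M1, M2, M3, M4 and M5 spanned 0. Fabp5 read 519 and 392 CPM (−0.40, −0.48 to −0.33). Its states went both ways, from −1.54 in M1 to 1.51 in M5, the latter against a 4T1p level set by 5 cells.

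Cd36 read 7.53 CPM (35 UMIs) in 4T1p and 24.5 CPM (178 UMIs) in 4T1m (1.70, 1.18 to 2.27). It was higher in 4T1m in the 7 states that allowed a value (M3 as a bound, with 0 UMIs in 4T1p). Of the other 6, only M1 and M7 had an interval above 0. In 4T1m, 15 of the 20 UMIs of M1 lay in 1 cell and 16 of the 18 of M7 in 5 cells. M0, with 22 UMIs in 4T1p and 92 in 4T1m, stood at only 0.35 (−0.33 to 1.09). M4 rested on 1 and 9 UMIs and M6 on 5 and 1. Plin2 was nearly level at 409 and 461 CPM (0.17, 0.09 to 0.25), with 7 states lower and 1 higher in 4T1m. Abcg1 was level at 63.0 and 60.7 CPM (−0.06, −0.27 to 0.16). Gpnmb (33 against 110 UMIs, 1.10), Lpl (21 against 49, 0.58) and Fabp4 (15 against 42, 0.84) were under the minimum, and the intervals of Lpl and Fabp4 spanned 0.

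**Figure D2:**
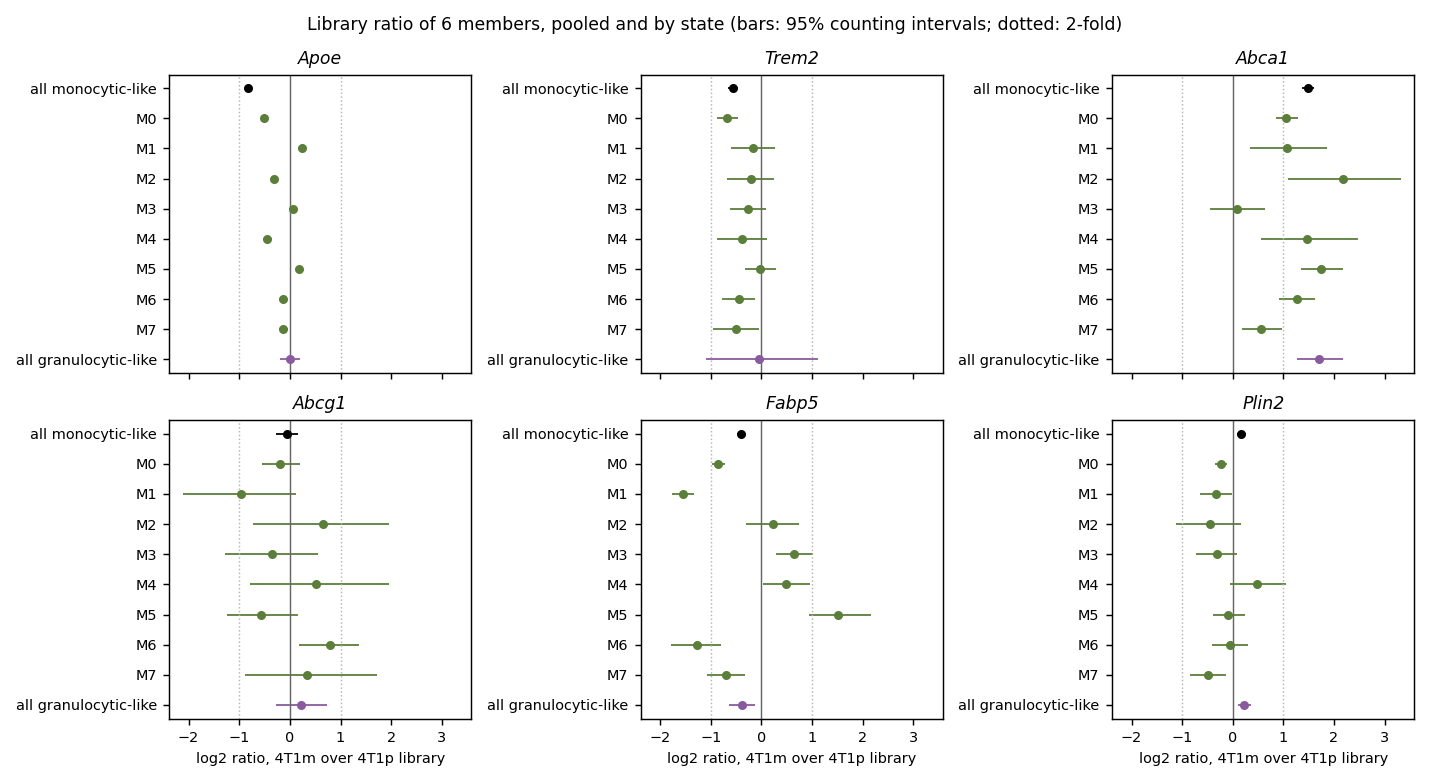
Log2 ratio of the 4T1m over the 4T1p library for 6 members, in all monocytic-like cells (black), in each state M0 to M7 (green) and in all granulocytic-like cells (purple). Bars are 95% counting intervals and dotted lines mark 2-fold; Abca1 lies right of 0 in every row, Trem2 left of 0 in every row, and the pooled Apoe ratio of −0.82 lies below that of each of its states.

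Exchanging the shares of states between the libraries shows how much of each difference went with them. With the levels of 4T1p and the state shares of 4T1m, the Apoe ratio was −0.71, close to the full −0.82, and with the levels of 4T1m and the state shares of 4T1p it was −0.16. For Abca1 the order was opposite, at 0.30 from the shares and 1.15 from the levels, of a full 1.49. Both values lean on small groups. The levels value puts 40.5% of the weight on M6, where 4T1m has 23 cells and 5 of them held 58 of 93 Abca1 UMIs. The shares value puts 33.7% on M5, where 4T1p has 30 cells. These weights hold for every member. Trem2 also followed the levels more (−0.40) than the shares (−0.19), and Cd36 had 0.77 from the shares and 1.11 from the levels. For Fabp5 and Plin2 the parts opposed each other, at 0.22 and −0.77 for Fabp5 and at 0.38 and −0.19 for Plin2.

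**Figure D3:**
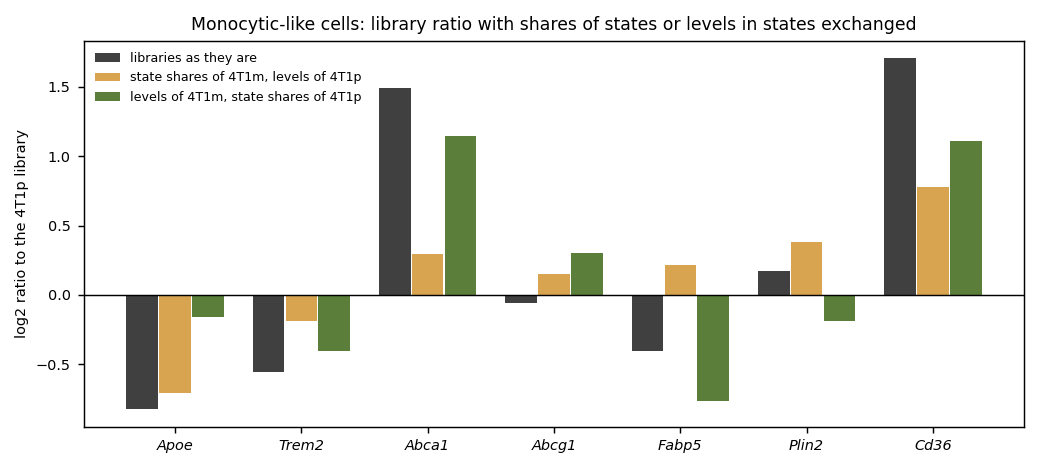
Log2 ratio to the 4T1p library of 7 members in monocytic-like cells, for the 4T1m library as it is (grey), for 4T1p levels weighted by the state shares of 4T1m (orange) and for 4T1m levels weighted by the state shares of 4T1p (green). Most of the Apoe difference appears in the orange bar (−0.71 of −0.82) and most of the Abca1 difference in the green bar (1.15 of 1.49).

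Other genes of lipid metabolism, in 7 lists chosen by pathway, were mostly less than 2-fold apart between the libraries, with list medians from −0.10 to 0.57. So were most genes of any kind. Of all 5694 genes past the minimum, 6.55% were at least 2-fold higher in 4T1m and 1.26% at least 2-fold lower. The counts of the lists are to be read beside those shares. Cholesterol efflux and LXR target genes had 0 of 10 tested at least 2-fold apart between the libraries, with a median of 0.17 against 0.14 over all genes. Arl4c (0.75), Abca9 (0.64) and the desaturase Scd2 (0.64) were highest, and Pltp (−0.64), the LXR beta gene Nr1h2 (−0.36) and Rxra (0.02) lowest. All 10 tested genes of this list thus lay between −0.64 and 0.75. Of the 12 cholesterol synthesis genes tested 1 was at least 2-fold higher in 4T1m, and their median of 0.57 was the highest of the lists. Idi1 (0.97) and the squalene epoxidase gene Sqle (0.86) were among the highest, and Fdps (−0.48), Mvd (−0.04) and Srebf2 (0.18) were lowest.

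Among uptake and scavenger receptors 1 of 9 was at least 2-fold higher in 4T1m, the oxidised LDL receptor Olr1 (1.66), ahead of Lrp1 (0.82) and Msr1 (0.69), with Cxcl16 (−0.63), Cd68 (−0.42) and Axl (−0.19) lowest and a median of −0.08. Of 10 droplet and triglyceride genes, Acsl4 (1.25), which activates long chain fatty acids, was at least 2-fold higher, followed by Lpin2 (0.86) and G0s2 (0.78). The triglyceride lipase Pnpla2 (−0.58), Plin3 (−0.07) and Abhd5 (0.22) were lowest, with a median of 0.45. Lysosomal lipid genes had 0 of 10 that far apart and a median of 0.00, with Npc1 (0.53), Asah1 (0.23) and Lipa (0.14) highest and Npc2 (−0.50) and Hexa (−0.48) among the lowest. PPAR and fatty acid oxidation genes had 0 of 8 and a median of 0.10, with Ppard (0.82), Hadha (0.26) and Cpt1a (0.26) highest and Acadvl (−0.12) and Hadhb (0.05) among the lowest. Of 12 genes known from TREM2-dependent lipid-associated macrophages, Csf1 (1.12) was at least 2-fold higher, then Cd9 (0.75) and Spp1 (0.52), and Cd63 (−0.46), Itgax (−0.36) and Ctsb (−0.32) were lowest, with a median of −0.10. No list held a gene at least 2-fold lower in 4T1m, beside 1.26% of all genes. The counts of higher genes stand beside 6.55% of all genes.

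Between the lineages the lists differed more. At least 2-fold higher in monocytic-like cells were 8 of 10 efflux genes, 9 of 15 synthesis genes, 7 of 9 uptake receptors, 8 of 10 lysosomal genes, 6 of 10 PPAR and oxidation genes and 7 of 12 TREM2-related genes, beside 49.6% of all genes. The synthesis, PPAR and TREM2-related counts lay nearest to that share. At least 2-fold lower were 1 of 15 synthesis genes, 1 of 10 PPAR and oxidation genes and 2 of 12 TREM2-related genes. Droplet genes had 2 of 12 higher and 5 of 12 lower in monocytic-like cells, beside the 11% of all genes that were lower. The droplet list had the lowest median, at −0.74. Plin2, a member and so not on that list, had the same direction.

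Fabp4 lay mostly outside the macrophages of these libraries. Of its 1048 UMIs, 977 (93.2%) lay in the 40 barcodes that took no name and 57 in monocytic-like cells, where the largest count in a cell was 13. Those 40 barcodes were led by Igfbp7, Sparc, Rgs5 and Tm4sf1. They took no name because more than 1 marker list fitted them, without a clear best. In sum, endothelial markers stood at 1107.5 CPM, fibroblast markers at 1710 CPM and epithelial markers at 1018 CPM. By mean share of barcodes with a marker, the epithelial list led at 21.25%, against 10% for the endothelial list. A cluster of 41 barcodes was named epithelial tumor cell-like without the highest doublet scores and with log-normalization. The name was again withheld with lipid genes kept. At the other resolutions the same 40 barcodes formed the cluster, so the missing name there is no separate result. Only 3 barcodes, all of the 4T1p library, held 864 Fabp4 UMIs (416, 236 and 212). Each of the 3 had at least 4 of the 6 endothelial markers. The barcode with 416 also had 5 granulocytic-like markers with 321 UMIs, against 38 UMIs of endothelial markers, and 3 Ptprc UMIs, so its RNA was mixed.

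Split by those markers, 4 of the 40 barcodes, all of 4T1p, had a UMI of at least 3 endothelial markers, and they held 895 Fabp4 UMIs and 74 of the 77 Cd36 UMIs of the 40. The other 36 held 82 Fabp4 and 3 Cd36 UMIs. FABP4 and CD36 are both known from capillary endothelium and fat cells. All 6 adipocyte markers were at 0 in the 40 barcodes. Capillary cells also bind lipoprotein lipase through GPIHBP1, and its gene Gpihbp1, picked after its values were seen, had 10, 18 and 38 UMIs in the 3 barcodes with most Fabp4. Plvap, read beside it, had 24, 0 and 50 UMIs in the same barcodes. The other barcode with at least 3 endothelial markers had 31 Fabp4 UMIs and 0 UMIs of Gpihbp1, Plvap and Cd36. In monocytic-like cells 1 of 1842 had a UMI of at least 3 endothelial markers, whose summed level there was 29.9 CPM (4T1p) and 37.6 CPM (4T1m), with Cldn5 at 0. Which cells the Fabp4 and Cd36 of the 40 barcodes came from was not tested.

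**Figure D4:**
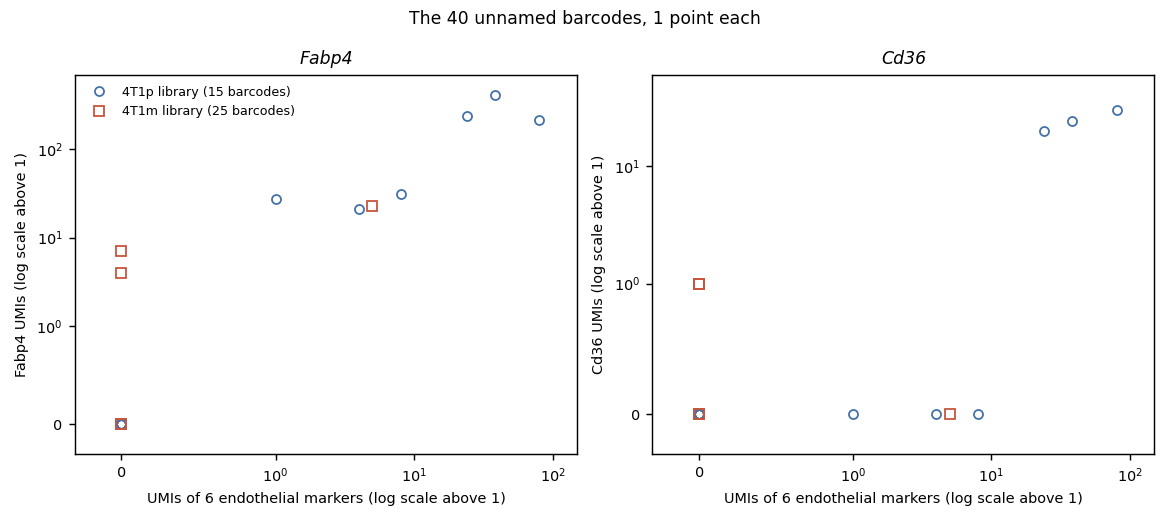
UMIs of Fabp4 (left) and Cd36 (right) against UMIs of 6 endothelial markers in each of the 40 unnamed barcodes, 15 of the 4T1p library (circles) and 25 of the 4T1m library (squares); axes are logarithmic above 1 and many points lie on 0. The 3 barcodes with 212 to 416 Fabp4 UMIs also have 20 to 30 Cd36 UMIs, and all are from the 4T1p library.

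Lpl was spread otherwise, with 20 of its 91 UMIs in the unnamed barcodes, 13 of them in barcodes with fewer than 3 endothelial markers, and 70 in monocytic-like cells. It was seen in 29 cells in all, and 1 cell of M5 in the 4T1m library held 20 UMIs and 1 cell of M0 in the 4T1p library 13. Such counts allow no statement on states. The abundant members were carried by many cells. The fewest cells that together held 50% of a member's UMIs were 160 of 2314 for Apoe, 174 of 1074 for Abca1, 183 of 972 for Trem2, 319 of 1910 for Plin2 and 143 of 578 for Abcg1, but 64 of 1012 for Fabp5, 12 of 64 for Gpnmb, 10 of 92 for Cd36, 4 of 29 for Lpl and 2 of 60 for Fabp4.

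**Figure D5:**
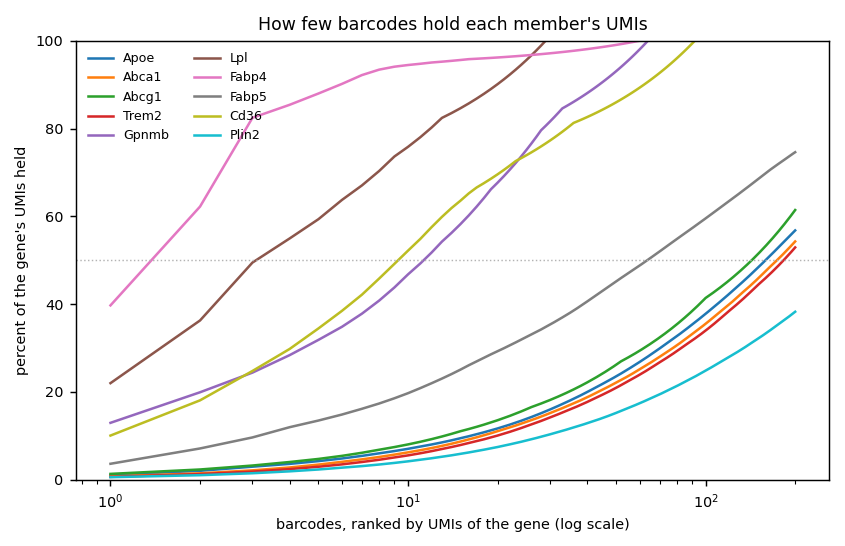
Percent of all UMIs of each member held by the barcodes with most of them, over both libraries, against the number of barcodes on a log axis; the dotted line marks 50%. Fabp4 passes 80% with 3 barcodes, whereas Plin2 passes 50% only after 319, beyond the plotted range.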

How the data were processed

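GR-1+ tumor cells were captured with a 10x Chromium 3′ v3 kit in 1 library per tumor type. The authors aligned the reads to mm10 (GRCm38) with Cell Ranger and deposited filtered matrices of raw UMI counts per gene and barcode, with no normalization. The study also required a Ptprc UMI and removed doublets. Here the 3 limits on genes, UMIs and mitochondrial share were applied alone, and doublets (Scrublet scores, 1% per 1000 cells left out) and Ptprc entered as alternatives. A Ptprc UMI was present in 518 of the 1128 kept barcodes of 4T1p and 1575 of the 2092 of 4T1m. The main values thus include barcodes without one, in unlike shares of the libraries. With the Ptprc limit 943 cells were monocytic-like, against 1842 without it.

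Cells were clustered with Seurat 5.3.0 and sctransform 0.4.2 in R 4.3.3 (3000 variable genes less the members and pathway genes, 11 principal components, resolution 0.8), and monocytic-like clusters were clustered again. A cluster took a name where 3 or more of its markers were each found in 10% or more of the cells, with no close second (under 0.75 of the best score). Summed UMI counts were turned into CPM with exact Poisson intervals and their ratios into log2 with exact binomial intervals, at 95%, in Python 3.11.15 with scipy 1.17.1. Against a count of 0 a limit of 3 counts was used. Genes entered a comparison from 200 UMIs upward, both groups together, and no test was run. A likeness was the Pearson r of log2(CPM + 10). Scripts were checked on simulated data.

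Members and lists were chosen with earlier results of these data known. Genes named are the members, the markers, the leading genes of each cluster (highest fold among genes seen in 25% of its cells or more), the 3 highest and 3 lowest genes of each pathway list between the libraries, and the 3 genes most like each member. Some genes that this rule names are not reported here. Of the 14 genes listed for TREM2-dependent macrophages 13 were found in the matrices. Depth was 2015 (4T1p) and 2739 (4T1m) median UMIs per kept barcode.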

Additional observations from a re-analysis of the deposited data

Results flagged for a closer look

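Gpnmb differed between the libraries in opposite directions in the 2 lineages, with a log2 ratio of 4T1m over 4T1p of 1.1 in monocytic-like cells (110 against 33 UMIs) and −1.74 in granulocytic-like cells (31 against 27 UMIs). The difference between the lineages was not tested. In the granulocytic-like cluster G6, all 22 UMIs of the 4T1p library and all 13 of the 4T1m library lay in at most 5 cells each. In M0, 5 cells held 61 of the 97 UMIs of the 4T1m library.

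Apoe had a ratio of 0.24 in M1 and −0.51 in M0, and the difference between these states was not tested. Without the 5 cells with most Apoe in each library, M1 read 7365 CPM in 4T1p and 7400 CPM in 4T1m, and M0 read 5373 and 4413 CPM.

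Fabp5 had a ratio of 1.51 in M5 and −1.54 in M1, and this difference was not tested either. The M5 value compares 415 UMIs with 25, of which 23 lay in 5 cells. In M1 the level was 2222 CPM in 4T1p and 762 CPM in 4T1m, and 1481 and 590 CPM without the 5 cells with most Fabp5 in each library.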

How the results depend on the processing

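Of 335 alternatives for single members, 219 gave a value within the counting interval and 116 a value outside it, and 21, over 6 members (Abca1, Abcg1, Gpnmb, Fabp4, Cd36 and Plin2), gave the other sign. The cluster resolutions 0.4 and 1.2 gave 100% of cells the lineage of the main setting. Their values repeat the main ones and are counted among the 219. Of ratios of at least 2-fold with 200 UMIs, only that of Cd36 in monocytic-like over granulocytic-like cells turned, from 3.58 to −0.147 with lineages taken from each cell's own markers, a rule that puts 12 of the 40 unnamed barcodes with 45 Cd36 UMIs among the granulocytic-like cells. Over its alternatives the ratio of 4T1m over 4T1p stayed positive for Abca1 (1.18 to 1.65) and Cd36 (0.84 to 3.03) and negative for Apoe (−1.12 to −0.13), Trem2 (−0.71 to −0.33) and Fabp5 (−0.43 to −0.17), while Plin2 ran from −0.19 to 0.35, Gpnmb from −0.13 to 2.92 and Fabp4 from −4.42 to 2.28. Members at least 2-fold higher in 4T1m went from 2 to 1 (Abca1) with only cells that had a Ptprc UMI and with log-normalization for clustering, and members at least 2-fold lower from 0 to 1 (Apoe, −1.12) at a mitochondrial limit of 5%. The causes of these moves were not tested. In cells of at least 5000 UMIs, an alternative chosen after seeing the data, 7 rather than 4 of 8 members were at least 2-fold higher in monocytic-like cells. The share of all genes was not read for those deeper cells, so that count has no background beside it. All genes at least 2-fold apart between the libraries made up 7.82%, and 1.07% were 3-fold apart. No paired analysis was possible because each tumor type had 1 library, and for the same reason no replicate could be left out. Lpl, Gpnmb, Fabp4 and Cd36 are limited by counts of 91 to 1048 UMIs held by 29 to 92 cells.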

Other observations

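The 513 (4T1p) and 657 (4T1m) barcodes outside the limits on genes, UMIs and mitochondrial share held less of most members than the kept ones. Apoe stood at 6830 CPM outside and 12249 CPM inside the limits in 4T1p, and at 4247 and 5649 CPM in 4T1m. Lpl in 4T1p was the other way, with 51 UMIs and 14.8 CPM outside against 5.03 CPM inside, and so was Fabp4 in 4T1m, with 50 UMIs and 12.5 CPM outside against 8.12 CPM inside. Gpnmb had 5 UMIs outside in 4T1p (1.45 CPM against 10.8 inside) and 7 in 4T1m (1.75 against 13 inside).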
